A study of Mus musculus with 4 samples.

Results

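A rule for newborn cortical excitatory neurons of the mouse at E15.5 (embryonic day) was applied to 1 single-cell RNA library. It took barcodes with at least 3 unique molecular identifiers (UMIs, each 1 counted RNA molecule) of Neurod6 and at most 1 of Eomes. Barcodes also had at least 1000 genes, at most 10% mitochondrial UMIs and at most 30000 UMIs. The rule found 69 cells among the 541 barcodes of the library that passed these limits, 12.8% (exact 95% interval 10.1 to 15.9), out of 6341 barcodes in the series. They are called Neurod6+ Eomes-low cells below, and they were set against the 472 other barcodes of the same library. Newborn neuron is the name given to the rule, and the time since a cell's birth was not measured. The cells were chosen by their own Neurod6 and Eomes UMIs, so every comparison with the other barcodes is a description, with no test.

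The series holds 4 libraries, from the cortex and the ganglionic eminences (GE, the ventral source of GABAergic neurons) at E15.5 and at E18.5, with 1 library for each. All 4 came from embryos of Nestin-GFP mice bred with DCX-mRFP mice, and the dissociated cells were sorted for green fluorescence as neural progenitors. Nestin is a filament protein of neural progenitors and Dcx is a microtubule protein of young neurons, so a neuron in these libraries passed a gate on the progenitor reporter. The sources used here do not say how many embryos went into each library. The intervals printed cover counting error only, and no difference between ages has a replicate check.

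The library used is labelled GE E15.5, and its genes go against that label. Fezf2, a cortical transcription factor, was found in 339 of its 472 other barcodes (71.8%), which the rule did not pick. In the E15.5 library labelled cortex it was found in 12 of 928 (1.29%). GABAergic neuron markers summed to 244 CPM (a normalised count, defined below) in those 472 and to 3487 CPM in the E15.5 library labelled cortex. The Neurod6+ Eomes-low cells were picked on a cortical gene, which favours the values that follow. They held 149 CPM of Emx1, also a cortical factor, and 369 CPM of Fezf2, against 0.593 and 1.19 CPM in the E15.5 library labelled cortex. Dlx2, a factor of GABAergic progenitors, stood at 27.4 CPM in these cells and at 1215 CPM in the E15.5 library labelled cortex. The names of the deposited files also give the region the other way round for both ages, so the libraries are called by their labels throughout and the region by its genes. A CPM value is a gene's UMIs summed over a set of cells, per 1000000 of that set's UMIs without mitochondrial, ribosomal protein and haemoglobin genes.

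In the developing cortex, radial glia lining the ventricle divide to give intermediate progenitors, which express the T-box factor Eomes and then give rise to glutamatergic neurons. Young neurons shut Eomes off, switch on the basic helix-loop-helix factors Neurod2 and Neurod6, migrate outward and start an axon. Neurons born early settle in the deep layers and are marked by Bcl11b, Fezf2, Sox5 and Tbr1, while those born later fill the upper layers and are marked by Cux2 and Pou3f2.

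The 69 cells held 11795 to 29598 UMIs each, with a median of 14891, against a median of 17730 in the other barcodes (11667 to 29779). They had a median of 3987 genes, against 4559 in the other barcodes. None shared a barcode with another library. None was among the 6 doublet-like barcodes of the library, and neither was any of the 472 other barcodes. All 6 lay above the limit of 30000 UMIs, so the mark says nothing about these cells. UMIs of both Xist and a Y-linked gene, which mark a mixture of female and male RNA, were found in 10 of the 69 cells (14.5%) and in 183 of the 472 other barcodes (38.8%). In the library labelled GE E18.5, 28 of 1092 barcodes passed the same rule (2.56%, 1.71 to 3.68). The libraries labelled cortex held 4 such cells among 928 at E15.5 (0.431%) and 8 among 3083 at E18.5 (0.259%).

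Neurod6 (chromosome 6, 55677822 to 55681263, minus strand, GRCm38) ranged over 3, 30 and 59 UMIs as lowest, median and highest per Neurod6+ Eomes-low cell, against 0, 10 and 52 in the other barcodes. Eomes (chromosome 9, 118478212 to 118486132, plus strand) was at 0 in 56 of the 69 cells and at 1 UMI in the remaining 13. Most cells lay far above the threshold for Neurod6, with 59 at 10 UMIs or more and a median of 31 among those. Just inside it were 3 cells at 3 UMIs and 5 cells at 4 UMIs. Just outside it were 8 barcodes with 2 Neurod6 UMIs and low Eomes, whose median Sox2 was 5 UMIs, and 8 barcodes with 2 Eomes UMIs and at least 3 of Neurod6, whose median Neurod2 was 5 UMIs.

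The 10 cells with 3 to 9 Neurod6 UMIs go against the name of neuron. Radial glia markers summed to 10912 CPM in those 10 cells, against 820 CPM in the 59 cells with 10 or more Neurod6 UMIs. Excitatory neuron markers other than Neurod6 summed to 683 CPM in the 10 cells and 6689 CPM in the 59. Slc17a6 was at 0 in the 10, but it was too sparse in the 59 for this to separate them. Vim, a filament of radial glia, stood at 2739 CPM in the 10 cells against 241 CPM in the 59. The proliferation gene Mki67 stood at 210 CPM in the 10 cells against 13.8 CPM in the 59. Against the other barcodes, counts of called genes and the ratios of Vim, Fabp7, Hes5 and Mki67 are given below with and without them. So are the counts against Eomes-positive barcodes, the share with Bcl11b and the split by Neurod1. Other results include them, among them the ordering of the barcodes by the rule genes and the comparison with cells at E18.5.

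**Figure D1:**
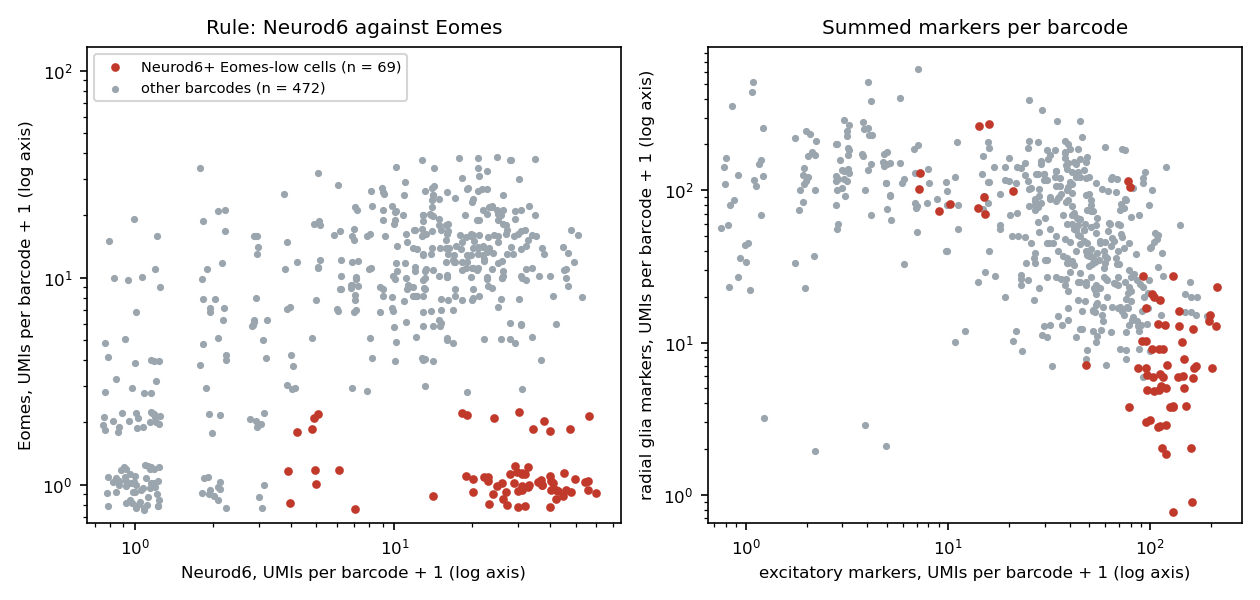
Each point is 1 barcode (library labelled GE E15.5), with UMIs per barcode + 1 on log axes and a small random shift so that points do not hide each other. The left panel plots Eomes against Neurod6 and the right panel summed radial glia markers against summed excitatory neuron markers, here with the rule gene Neurod6 among them. The 69 Neurod6+ Eomes-low cells are red and the 472 other barcodes grey. In the right panel, 12 red points have more radial glia than excitatory marker UMIs, and they include all 10 cells under 10 Neurod6 UMIs.

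Markers of excitatory neurons other than the rule gene Neurod6 summed to 5936 CPM in the Neurod6+ Eomes-low cells, against 1878 CPM in the other barcodes. Per cell this was 2, 80 and 165 UMIs (lowest, median and highest), against 0, 25 and 146 in the other barcodes, so the sets overlap. Most of the sum in both sets was Tubb3, the neuronal beta-tubulin, and Dcx, neither of them particular to excitatory neurons. The glutamate transporter gene Slc17a6 on the same list was lower in the Neurod6+ Eomes-low cells, as given below. Intermediate progenitor markers summed to 540 CPM against 4449 CPM, and the early factor Neurog1 was at 0 in the 69 cells. Neurod2, a partner of Neurod6 in driving excitatory neuron fate, ranged over 0, 15 and 51 UMIs per cell, against 0, 5 and 38 in the other barcodes. Dcx was found in 64 of the 69 cells and stood at 463 CPM (420 to 510), against 247 CPM, 1.87-fold higher (1.68 to 2.09).

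Radial glia markers summed to 2086 CPM in the Neurod6+ Eomes-low cells, against 5883 CPM in the other barcodes, with 0, 6 and 271 UMIs per cell and at least 3 UMIs in 59 of the 69 cells. GABAergic neuron markers summed to 196 CPM in the Neurod6+ Eomes-low cells, 244 CPM in the other barcodes and 3487 CPM in the E15.5 library labelled cortex. All 8 of those markers were above 0 in the 69 cells, but 11 cells held 169 of the 179 UMIs, up to 41 in a cell, at 1061 CPM. The other 58 cells held 13.3 CPM, with Dlx1, Dlx5, Gad1, Gad2 and Slc32a1 at 0. Cajal-Retzius markers came to 3 UMIs in all 69 cells, with Trp73, Lhx5, Calb2 and Ebf3 at 0. Endothelial markers came to 3 UMIs (Cldn5, Kdr and Cdh5 at 0), microglial markers to 0, and oligodendrocyte lineage markers to 1 (Olig2, Pdgfra and Sox10 at 0). Mural cell markers came to 20 UMIs, of which 14 lay in 1 cell.

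The regions just upstream of the 2 genes that name these neurons are printed because proneural factors of the Neurog and Neurod families bind short E-boxes. Each is the 250 bases before the annotated start, minus strand, from RefSeq on GRCm38.p6. Capitals mark matches to CAGATG or CATCTG, the same E-box read on both strands. The Neurod6 window is chr6:55681264-55681513 and the Neurod2 window is chr11:98329646-98329895.

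Neurod6: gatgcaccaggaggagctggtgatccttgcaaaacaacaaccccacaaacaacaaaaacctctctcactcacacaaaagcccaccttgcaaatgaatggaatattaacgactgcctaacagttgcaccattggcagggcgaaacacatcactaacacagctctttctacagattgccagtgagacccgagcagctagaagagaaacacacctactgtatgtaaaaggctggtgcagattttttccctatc

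Neurod2: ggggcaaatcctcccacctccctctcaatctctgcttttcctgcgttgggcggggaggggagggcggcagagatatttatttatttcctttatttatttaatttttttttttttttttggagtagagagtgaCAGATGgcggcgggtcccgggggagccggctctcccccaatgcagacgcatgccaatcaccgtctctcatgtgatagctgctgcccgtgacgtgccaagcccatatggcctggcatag

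The Neurod6 window held 0 matches and the Neurod2 window 1, whose first base lies 118 bases before the start. Of 32851 promoter windows of this length, 14.44% held a match. Among the windows of the 15 genes with the largest excess in the Neurod6+ Eomes-low cells, named next, 1 of 15 held one. A match is a run of letters in this window, not a measured binding site.

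Against the other barcodes, a gene was called where the CPM differed at least 2-fold and reached 20 CPM in 1 of the 2 sets. Of 7527 genes measured, 586 were called higher in the Neurod6+ Eomes-low cells (7.79%) and 926 lower (12.3%), 20.1% in either direction. The median log2 ratio over all measured genes was -0.18. With libraries scaled by TMM the split was 709 higher and 738 lower, and by DESeq2 size factors 715 and 717, which moves every log2 ratio up by 0.15 and 0.16. With only the 59 cells of 10 or more Neurod6 UMIs, and the 10 counted among the other barcodes, 703 genes were higher and 1196 lower.

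Among genes of at least 50 CPM in 1 set, 15 were named for the largest excess. Jakmip1, a microtubule-associated protein, stood at 121 CPM (99.2 to 146) in Neurod6+ Eomes-low cells and 5.84 CPM in the other barcodes, 20.7-fold higher (14.3 to 30.5). It was found in 44 of 69 cells and in 28 of 472 other barcodes. Islr2, a leucine-rich repeat receptor of growing axons, stood at 188 CPM against 9.50 CPM, 19.8-fold higher (14.8 to 26.7). Rspo3, a secreted enhancer of Wnt signalling, stood at 128 CPM against 6.72 CPM, and 43 of 69 cells held it against 20 of 472. The adhesion molecules Opcml (144 against 7.45 CPM), Ntm (12.5-fold) and Cdh13 (132 against 10.2 CPM) belonged to the same end of the range. Cntn2, the axonal glycoprotein also called TAG-1, ranged over 0, 4 and 19 UMIs per cell and stood at 398 CPM (359 to 442) against 28.1 CPM, 14.2-fold higher (11.9 to 17.0). The remaining 8 were Sla, Lrfn5, Lingo1, Gpr85, Clstn2, Sh3gl2, Nefm and Hecw1, at 11.9-fold to 19.9-fold.

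Among 16 neuronal differentiation factors, 14 were measured, of which 8 were higher and 3 lower, with a median log2 ratio of 1.40. Bhlhe22, a helix-loop-helix factor of cortical projection neurons, stood at 356 CPM against 32 CPM, 11.1-fold higher (9.33 to 13.3), and was found in 54 of 69 cells against 89 of 472. Myt1l, a zinc finger factor that holds cells in the neuronal state, was 7.14-fold higher. Hivep2 was 7.79-fold and the repressor Scrt1 4.40-fold higher. Neurod2 was 2.80-fold higher (2.61 to 2.998) and the rule gene Neurod6 2.71-fold. The 3 lower factors were those of the step before. Neurod4 stood at 2.20 CPM against 27.9 CPM, Nhlh1 at 7.68 CPM against 26.2 CPM, and Neurod1 at 43.9 CPM (31.4 to 59.8) against 95.6 CPM.

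Of 14 deep-layer identity genes 10 were measured, with 5 higher, 2 lower and a median log2 ratio of 1.08. Bcl11b (chromosome 12, 107910403 to 108003602), a factor of neurons that project below the cortex, ranged over 0, 6 and 25 UMIs per cell, against 0, 0 and 16 in the other barcodes. Its level was 577 CPM (529 to 629) against 97.2 CPM, 5.94-fold higher (5.29 to 6.67). Sox5 (chromosome 6, 143828425 to 144781977), which times deep-layer neuron production, stood at 434 CPM against 89.6 CPM, 4.84-fold higher (4.26 to 5.50). Fezf2 (chromosome 14, 12342094 to 12348189), the selector of corticospinal neurons, stood at 369 CPM against 151 CPM, 2.44-fold higher (2.15 to 2.76). Tbr1 (chromosome 2, 61802930 to 61814114), a layer 6 factor, stood at 145 CPM against 56.4 CPM. Ldb2, a LIM-domain binding cofactor, stood at 91.1 CPM against 10.4 CPM, 8.78-fold higher (6.32 to 12.2). Etv1 and Foxp2 were lower, at log2 ratios of -2.49 and -1.55.

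Upper-layer identity genes did not move one way. Of 12 measured, 2 were higher and 3 lower, with a median of -0.32. Lmo4, a LIM-only cofactor, was 2.56-fold higher. Pou3f2, a POU factor of upper-layer neurons and their progenitors, stood at 125 CPM (103 to 150) against 275 CPM, found in 46 of 69 cells and 417 of 472 other barcodes. Unc5d, a netrin receptor of multipolar cells of the subventricular zone, stood at 16.5 CPM against 43.8 CPM. Cux2 differed by a log2 ratio of 0.48 and was not called.

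The cytoskeleton list had the largest median among the lists with more than 10 genes measured. Of its 21 genes, 18 were higher and none lower, with a median log2 ratio of 1.79. Summed over the list, a Neurod6+ Eomes-low cell held 13697, 53528 and 87817 CPM (lowest, median and highest), against 881, 18043 and 67207 CPM in the other barcodes. Stmn2, a tubulin-binding protein of growth cones, ranged over 0, 20 and 78 UMIs per cell and stood at 1757 CPM (1672 to 1846) against 173 CPM, 10.2-fold higher (9.42 to 11.0). Nefl, the light neurofilament, was 21.8-fold higher from a low level of 31.8 CPM against 1.46 CPM. Mapt, the axonal tau protein, was 7.04-fold higher, and Gap43, of the growth cone membrane, 4.63-fold. Tubb3, the neuronal beta-tubulin, stood at 3630 CPM against 1048 CPM.

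Axon guidance and synaptic genes followed, while migration genes split. Of 20 axon guidance and adhesion genes measured, 11 were higher and 2 lower (median 1.18), with the slit receptor Robo1 5.57-fold and Flrt3 5.42-fold higher and the ephrin receptor Epha4 at 105 CPM against 275 CPM. Of 19 synapse and channel genes, 15 were higher and 1 lower (median 1.55). Snap25, a vesicle fusion protein, was 8.34-fold, Camk2b 6.81-fold and the glutamate receptor subunit Grin2b 6.02-fold higher. The lower one was Slc17a6, the vesicular glutamate transporter VGLUT2, at 8.78 CPM (3.79 to 17.3) against 43.5 CPM, found in 8 of 69 cells and 170 of 472 other barcodes. Among 16 migration genes, 5 were higher and 5 lower. Rac3 (5.46-fold), the reelin adaptor Dab1 (4.63-fold) and the Cdk5 activator Cdk5r1 (3.48-fold) were higher. Sstr2, a somatostatin receptor of intermediate progenitors, stood at 60.4 CPM (45.5 to 78.6) against 320 CPM, and the small GTPase Rnd3 at 19.8 CPM against 85.5 CPM.

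RNA-binding proteins also divided, with 5 of 15 higher and 3 lower (median -0.10). The splicing regulators Rbfox1 and Khdrbs2 were 10.9-fold and 10.3-fold higher. Ptbp1, a splicing repressor of progenitors, stood at 52.7 CPM against 140 CPM, and Elavl4 at 255 CPM against 620 CPM. Few genes of energy metabolism were called, with 0 of 14 for the respiratory chain (median -0.04), and 2 of 13 glycolysis genes were higher and 1 lower, led by the neuronal enolase Eno2 at 6.86-fold.

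**Figure D2:**
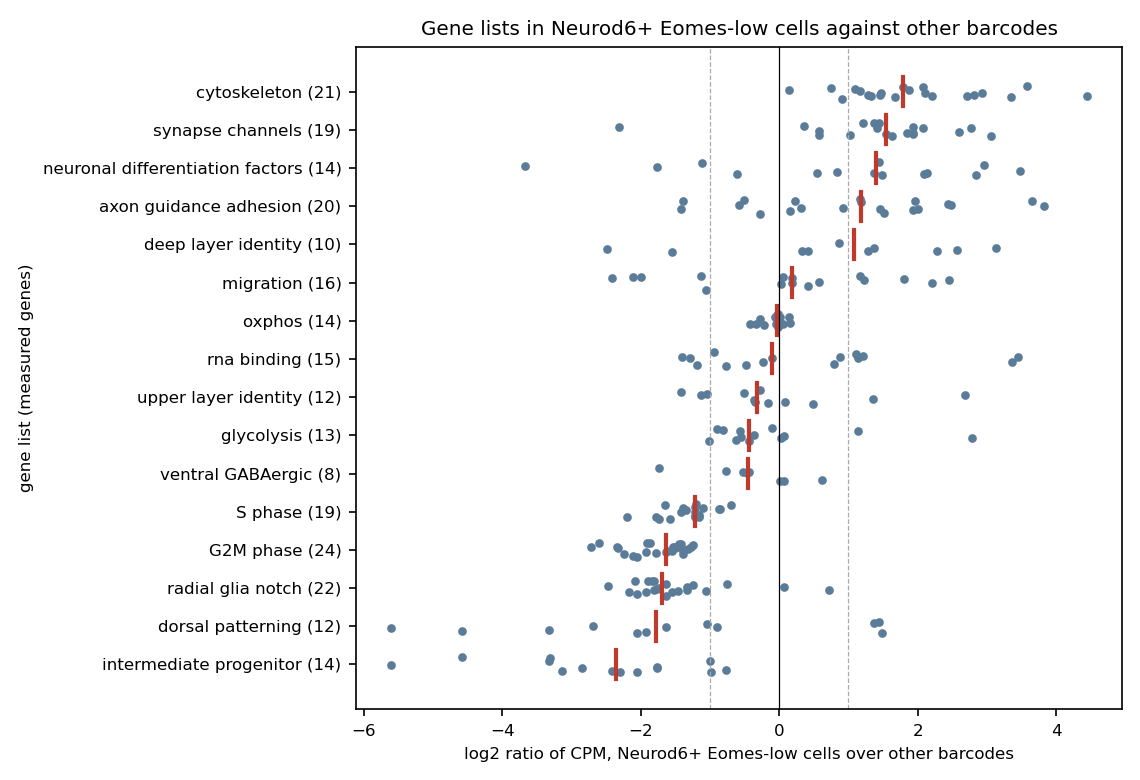
Each point is 1 measured gene of a list, placed at its log2 ratio of CPM in Neurod6+ Eomes-low cells over the other barcodes, the number of measured genes stands after the list's name, red bars are medians and dashed lines mark 2-fold. Lists with at least 8 measured genes are shown. The cytoskeleton list is at the top with a median of 1.79 and the intermediate progenitor list at the bottom with -2.35.

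Genes of progenitors were lower together. Of 22 radial glia and Notch genes, 0 were higher and 19 lower (median -1.69). Notch1 itself had a log2 ratio of -2.48, its target Hes5 -2.08, and the progenitor factors Sox2 -1.90 and Pax6 -1.92. Vim stood at 554 CPM against 1890 CPM and the lipid-binding protein Fabp7 at 1164 CPM against 2918 CPM. Nes, whose regulatory sequence drives the sorted reporter, was found in 25 of 69 cells against 320 of 472 other barcodes. All 24 genes of the G2 and mitosis list and 16 of 19 S phase genes were lower (medians -1.63 and -1.22). With only the 59 cells of 10 or more Neurod6 UMIs, the log2 ratios were -2.98 for Vim, -2.93 for Fabp7, -3.89 for Hes5 and -2.95 for Mki67, against -1.77, -1.33, -2.08 and -1.45 with all 69 cells.

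Among lists with at least 8 measured genes, intermediate progenitor genes had the lowest median, -2.35, with 12 of 14 lower. Neurog2, the proneural factor that starts the cascade, stood at 156 CPM (131 to 184) against 1553 CPM, and 40 of 69 cells still held it against 431 of 472. Neurog1 was found in none of the 69 cells and in 190 of 472 other barcodes, a log2 ratio of -4.57 or lower, taken to the floor of 3 counts over the 69 cells. The Notch modifier Mfng, the growth arrest gene Gadd45g and the antiproliferative gene Btg2 had log2 ratios of -3.31, -3.14 and -2.85. Btbd17, which is not on the list, stood at 11.0 CPM against 155 CPM. The Eomes value of -5.61 was set by the rule.

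The lowest 15 genes also held Igfbp7, an insulin-like growth factor binding protein, and the matrix protein Sparc. Igfbp7 stood at 1.10 CPM against 128 CPM, Sparc at 13.2 CPM against 193 CPM, and Cldn5, the tight junction protein of endothelium, at 0 against 137 CPM. Their levels were 751, 872 and 811 CPM in the 91 barcodes low in both rule genes (Neurod6 0 to 2 and Eomes 0 to 1), and 2.00, 54.2 and 0.364 CPM in Eomes-positive barcodes. Gng11, a G protein subunit also among the lowest 15, stood at 6.59 CPM against 51.9 CPM, and its log2 ratio turned to 1.53 when barcodes with at least 3 vascular, blood or immune marker UMIs were left out. Ramp2, Apoe, Mfap4 and Snhg18 completed the lowest 15. Dorsal patterning genes had 3 higher and 8 lower of 12, with Neurod6 among the higher and Eomes among the lower by rule. Emx1 stood at 149 CPM against 278 CPM. Of 8 GABAergic genes measured, 0 were higher. Dlx2 stood at 27.4 CPM against 37.7 CPM and Gad2 at 16.5 CPM against 22.2 CPM. Reln stood at 2.20 CPM against 1.02 CPM. Of 3 subplate genes measured 2 were lower, as were 2 of 3 astrocyte and oligodendrocyte genes and 2 of 6 immediate early genes (Jun and Egr1).

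Most other barcodes were Eomes-positive (at least 3 UMIs), 366 of 472, and 319 of those also held at least 3 Neurod6 UMIs. Against all 366, 582 of 7450 genes were higher in the Neurod6+ Eomes-low cells (7.81%) and 807 lower (10.8%), 18.6% in either direction, with a median of -0.18. Scaled by TMM the split was 668 and 622. With only the 59 cells of 10 or more Neurod6 UMIs, 688 genes were higher and 1095 lower. The same lists stood out as against all other barcodes: 17 of 21 cytoskeleton genes were higher (median 1.75), 14 of 19 synapse genes (1.37), 8 of 14 differentiation factors (1.13) and 5 of 10 deep-layer genes (0.91). The higher differentiation factors include the rule gene Neurod6. All 14 intermediate progenitor genes were lower (-2.57), Eomes among them by rule. The 5 lowest genes of at least 50 CPM in 1 set were Eomes, Neurog1, Btbd17, Neurog2 and the kinesin Kif26b, the last at -4.05.

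Ordering the barcodes by the rule genes showed where each gene was highest. Bcl11b stood at 577 CPM in Neurod6+ Eomes-low cells, 109 CPM in Eomes-positive barcodes with at least 3 Neurod6 UMIs, 35.2 CPM in Eomes-positive barcodes with 0 to 2 and 66.9 CPM in barcodes low in both. Over the same 4 sets Sox5 stood at 434, 106, 41.5 and 43.4 CPM, and Stmn2 at 1757, 197, 102 and 85.1 CPM. These genes had their largest step between the Neurod6+ Eomes-low cells and the Eomes-positive barcodes with at least 3 Neurod6 UMIs. Another group was highest a step earlier. Neurod1 stood at 43.9 CPM in the Neurod6+ Eomes-low cells, 128 CPM in Eomes-positive barcodes with at least 3 Neurod6 UMIs, 28.8 CPM in those with 0 to 2 and 5.21 CPM in barcodes low in both. Sstr2 (60.4, 427, 131 and 7.82 CPM), Slc17a6 (8.78, 59.9, 6.39 and 0 CPM) and Unc5d (16.5, 58.3, 17.6 and 2.61 CPM) were highest in the same set. Of 8309 genes measured over the 4 sets, 444 were highest in the Neurod6+ Eomes-low cells by at least 2-fold over the next set and 48 in Eomes-positive barcodes with at least 3 Neurod6 UMIs. The barcodes low in both held 427 such genes and the Eomes-positive barcodes with 0 to 2 Neurod6 UMIs held 15. The set low in both was mixed. Of its 91 barcodes, 87 held at least 3 radial glia marker UMIs, 28 GABAergic, 11 endothelial and 11 mural. Its 427 genes include Cldn5, Rgs5 and C1qa, so they are not genes of 1 cortical stage alone. UMIs of both Xist and a Y-linked gene were found in 150 of those 319 Eomes-positive barcodes (47.0%), and their part in these levels was not tested.

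**Figure D3:**
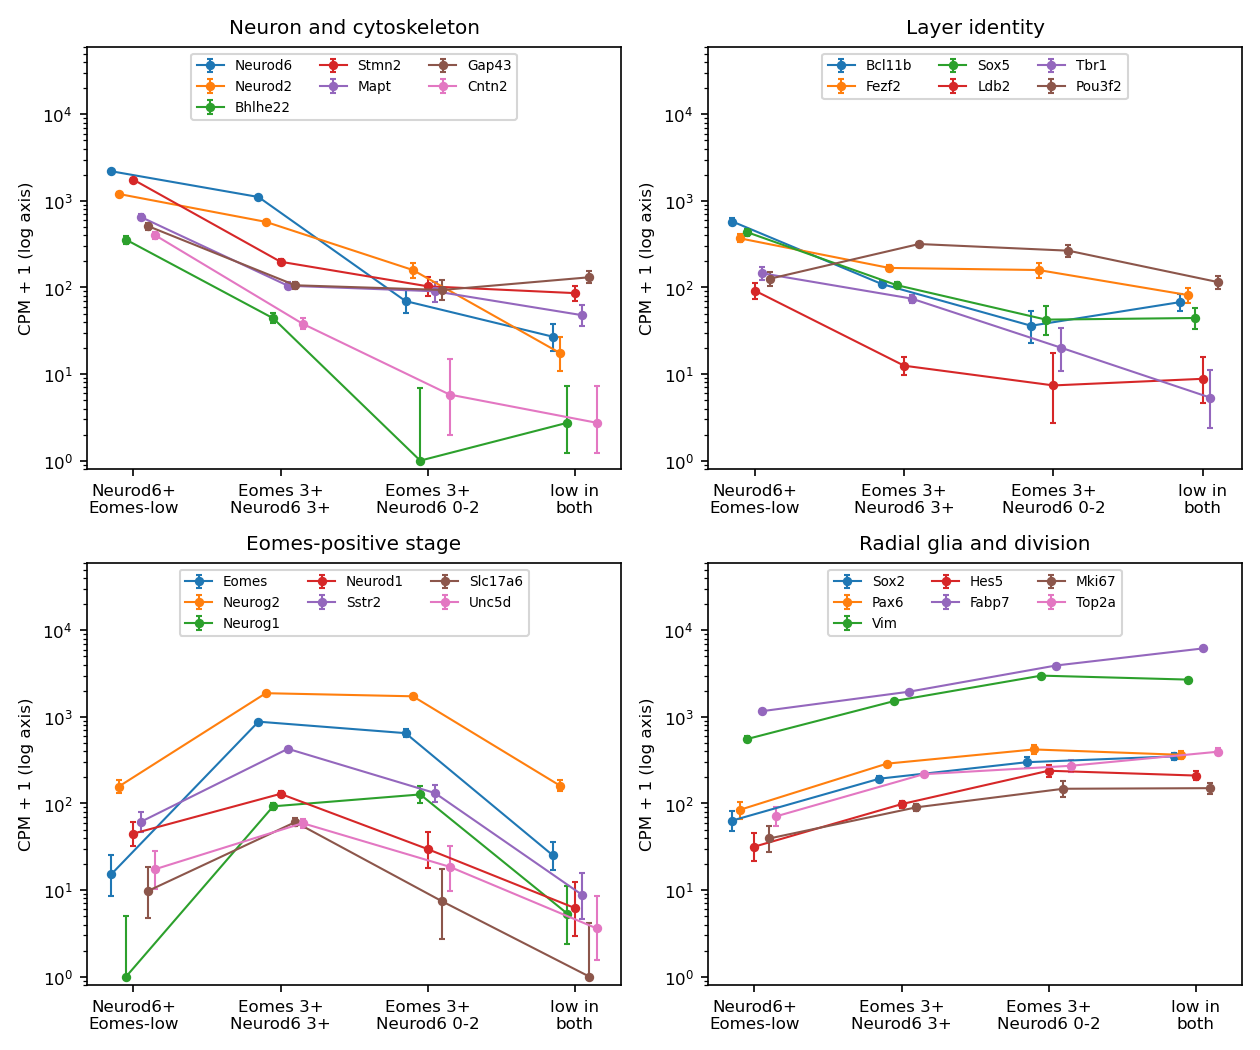
Points are CPM + 1 on a log axis in 4 sets of barcodes from the library labelled GE E15.5 (69, 319, 47 and 91 barcodes from left to right), with exact 95% Poisson intervals, and lines join the sets of 1 gene. Low in both means Eomes at 0 to 1 and Neurod6 at 0 to 2 UMIs. Neuronal and deep-layer genes are highest in the leftmost set, genes of the Eomes-positive stage peak in the middle sets, and radial glia genes are lowest at the left. The sets were cut on Neurod6 and Eomes, so the pattern of those genes was set by the rule.

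Single cells held several layer genes at once. Bcl11b was found in 58 of the 69 cells (84.1%, 73.3 to 91.8), against 227 of 472 other barcodes (48.1%). Among the 59 cells with 10 or more Neurod6 UMIs it was found in 54 (91.5%). The E15.5 library labelled cortex also uses Bcl11b, which was in 676 of its 928 barcodes, and so gives no background for it. Fezf2 was also found in 58 cells, against 339 other barcodes (71.8%) and 12 of 928 barcodes in the E15.5 library labelled cortex (1.29%), with a median of 14624 UMIs against 14891 in the 69 cells. Bcl11b and Fezf2 were found together in 51 cells (73.9%, 61.9 to 83.7), against 173 other barcodes (36.7%). Thinned to 10000 UMIs per barcode, the shares with both were 72.5% of the 69 cells and 23.9% of the other barcodes.

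Sox5 was found in 63 cells (91.3%), against 297 other barcodes (62.9%). Like Bcl11b, Sox5 and Pou3f2 are used in the E15.5 library labelled cortex, where 529 (57.0%) and 797 (85.9%) of 928 barcodes held them, so neither has a background there. Tbr1 was found in 52 cells (75.4%), against 185 (39.2%). Tbr1 was in 14 of 928 barcodes in the E15.5 library labelled cortex (1.51%). The upper-layer factor Pou3f2 was found together with Bcl11b in 40 cells (58.0%, 45.5 to 69.8), against 212 other barcodes (44.9%).

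Neurod1 divided the 69 cells into 44 with 0 UMIs, 20 with 1 to 2 and 5 with 3 or more. Depth moved with this split, since median UMIs were 14348, 16350 and 24393, and 2, 4 and 4 cells held both Xist and a Y-linked gene. Radial glia and Notch genes summed to 4460, 2426 and 6000 CPM and G2 and mitosis genes to 2155, 1451 and 885 CPM. The part of these in the differences was not tested. Deep-layer genes summed to 5347 CPM (5151 to 5549) in cells with no Neurod1, 3720 CPM (3503 to 3947) in cells with 1 to 2 UMIs and 4018 CPM (3622 to 4444) in those with 3 or more. Fezf2 stood at 497, 194 and 202 CPM in these 3 classes and Sox5 at 522, 296 and 373 CPM. Sstr2 went the other way, with 26.8, 95.1 and 139 CPM, and so did the ephrin receptor Epha3 between the first class and the others, with 68.9, 224 and 202 CPM. Cytoskeleton genes summed to 49056, 55728 and 48980 CPM. The split was repeated, as a choice made after seeing the data, among the 59 cells with 10 or more Neurod6 UMIs (35, 20 and 4 in the 3 classes). There deep-layer genes summed to 6150, 3720 and 4447 CPM, radial glia and Notch genes to 1267, 2426 and 1154 CPM, and Fezf2 to 568, 194 and 223 CPM. G2 and mitosis genes summed to 274.5, 1451 and 209.9 CPM, so the order of the first 2 classes was the reverse of that in all 69 cells. Cytoskeleton genes summed to 55842, 55728 and 56698 CPM. After thinning to 10000 UMIs no cell had 3 or more Neurod1 UMIs.

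In the library labelled GE E18.5, 28 cells passed the same rule, with 4685, 8134 and 23924 UMIs (lowest, median and highest), and 1 was doublet-like. Oligodendrocyte lineage markers summed to 563 CPM in them, with a UMI in 7 of 28 cells and at least 3 in 5. Those 5 had a median of 18039 UMIs and the other 23 a median of 7564. The 5 also held 8487 CPM of radial glia markers, against 665 CPM in the other 23. Against the 1064 other barcodes of their own library, 854 of 8222 genes were higher (10.4%) and 1146 lower (13.9%), 24.3% in either direction, with a median of -0.05. Of 12 differentiation factors measured, 11 were higher, Neurod6 among them by rule, and 0 lower (median 3.46). Neurod2 had a log2 ratio of 5.03 and Bhlhe22 6.45, while Bcl11b stood at -0.46 and Fezf2 at 0.23, neither called. Upper-layer genes had 7 higher and 1 lower of 12 (median 1.22).

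The E18.5 and E15.5 comparisons used different libraries and share no barcodes as controls. The same rule chose the cells in both, so their shared genes are a description and no independent check. Of 7202 genes measured in both, 328 were higher in both, which is 50.3% of the 652 higher at E18.5 and 67.8% of the 484 higher at E15.5. Another 417 were lower in both, 46.6% of 895 at E18.5 and 49.4% of 844 at E15.5. Over all 8222 genes measured at E18.5, 10.4% were higher and 13.9% lower, and over all 7527 measured at E15.5, 7.79% and 12.3%. These backgrounds cover more genes than the 7202 measured in both. Opposite calls were fewer, with 15 genes higher at E15.5 and lower at E18.5, and 20 the other way. Of the 15 genes named above for their excess at E15.5, 9 were also called higher at E18.5, and Sla, Lingo1, Cdh13, Ntm, Sh3gl2 and Nefm were not, though 10 of the 15 were past 2-fold. Cdh13 was at 0 in the E18.5 cells.

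Set directly against the E15.5 cells, the 28 cells at E18.5 had more expression of most upper-layer genes and less of some deep-layer genes. Of 7699 genes, 1305 were higher at E18.5 (17%) and 430 lower (5.59%), 22.5% in either direction, with a median of 0.17. Scaled by TMM the split was 869 and 670, and by DESeq2 size factors 864 and 673, with shifts of -0.22. In this comparison age, library and depth cannot be told apart. Of 12 upper-layer genes 8 were higher and 0 lower (median 1.37). Of 10 deep-layer genes 2 were higher, Etv1 and Tle4, and 4 lower (median -0.76).

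Pou3f2 ranged over 0, 6 and 18 UMIs per cell at E18.5, against 0, 1 and 8 at E15.5. It stood at 783 CPM (672 to 907) against 125 CPM, 6.26-fold higher (4.92 to 7.99). Unc5d stood at 211 CPM at E18.5 against 16.5 CPM at E15.5, 12.8-fold higher (7.06 to 24.7). Cux2 stood at 198 CPM against 40.6 CPM. Fezf2 was lower at E18.5, with 0, 0 and 2 UMIs per cell against 0, 3 and 28, and a level 11.98-fold lower (5.75 to 30.02). Bcl11b was lower as well, with 0, 0 and 5 UMIs per cell against 0, 6 and 25, and a level 5.97-fold lower (3.90 to 9.60). Ldb2 and Sox5 had log2 ratios of -2.79 and -2.04, and Tbr1 was not called at 0.54.

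The directions held without the 5 cells that had at least 3 oligodendrocyte lineage UMIs. In the remaining 23 cells, Pou3f2 had a log2 ratio of 2.80, Cux2 2.71, Unc5d 4.05, Fezf2 -3.79 and Bcl11b -2.27. Thinned to 4000 UMIs, Cux2 stood at 2.72, Pou3f2 at 2.66, Fezf2 at -2.71 and Bcl11b at -2.12. Thinned to 10000 UMIs only 7 of the 28 cells were left, 5 of them those with oligodendrocyte lineage markers, and Cux2 (0.47) was no longer called.

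**Figure D4:**
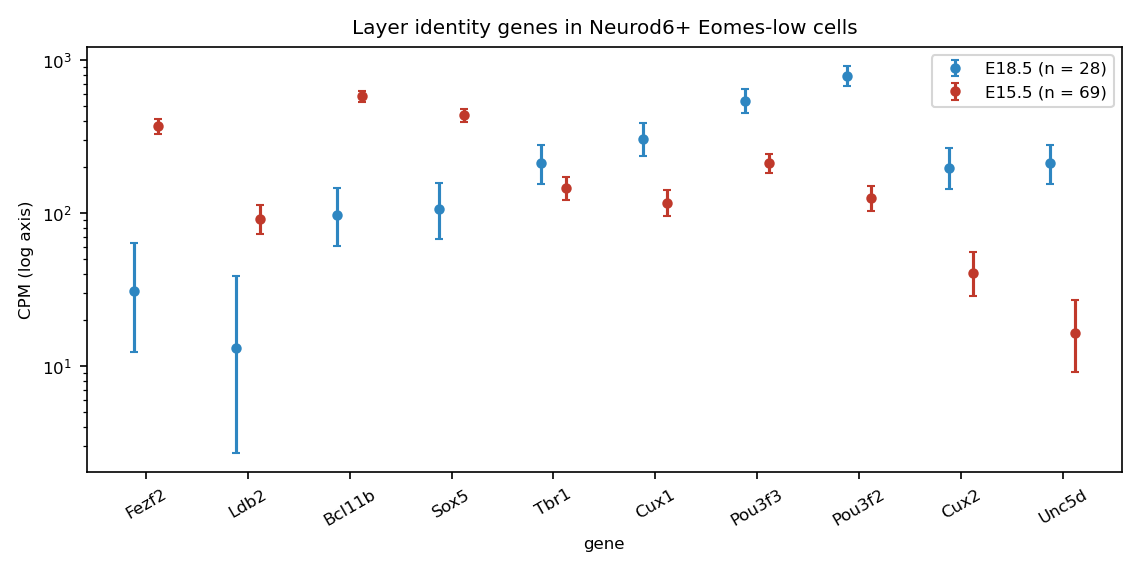
CPM on a log axis of 10 layer identity genes in cells that passed the rule, 28 at E18.5 (blue, left of each pair) and 69 at E15.5 (red), with exact 95% Poisson intervals. Fezf2, Ldb2, Bcl11b and Sox5 are lower at E18.5, and Cux1, Pou3f3, Pou3f2, Cux2 and Unc5d are higher. The deep-layer genes Etv1 and Tle4, which were higher at E18.5, are not shown.

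The shares of cells with each layer gene also differed, at different depths (median 8134 UMIs at E18.5 and 14891 at E15.5). Bcl11b and Fezf2 were found together in 3 of 28 cells at E18.5 (10.7%) against 51 of 69 at E15.5 (73.9%). Fezf2 was found in 5 of 28 cells at E18.5 (17.9%) against 58 of 69 at E15.5 (84.1%), and Pou3f2 in 27 of 28 (96.4%) against 46 of 69 (66.7%).

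**Figure D5:**
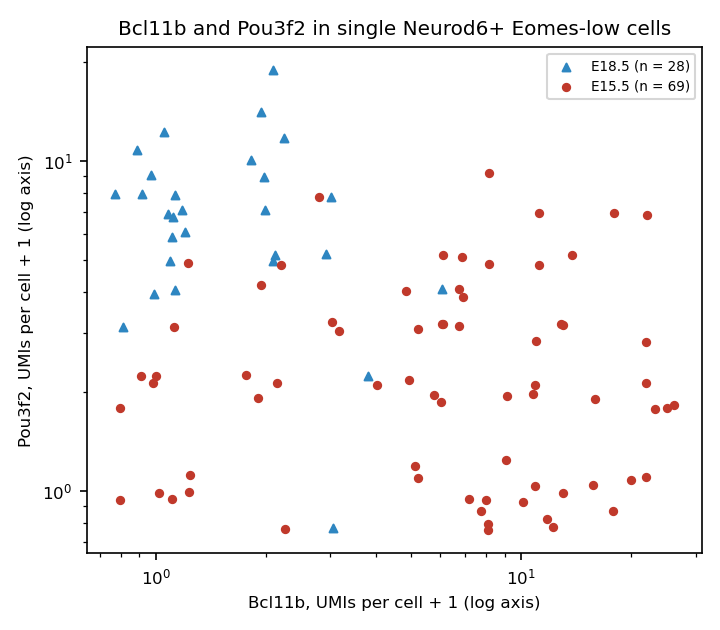
Each point is 1 cell that passed the rule, placed by its Bcl11b and Pou3f2 UMIs + 1 on log axes with a small random shift, for 28 cells at E18.5 (blue triangles) and 69 at E15.5 (red circles). The E18.5 cells reach 5 Bcl11b and 18 Pou3f2 UMIs, and the E15.5 cells 25 and 8.

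Differentiation factors had 1 of 12 higher at E18.5 (Neurod1) and 0 lower, with a median of -0.11. Neurod1 stood at 110 CPM at E18.5 against 43.9 CPM at E15.5, a log2 ratio of 1.32. This was 1.26 when thinned to 4000 UMIs, 1.60 without the 5 cells with oligodendrocyte lineage markers, and -0.11 when thinned to 10000 UMIs, where those 5 are most of the 7 cells left. Of 21 cytoskeleton genes 0 were higher and 4 lower, Nefm, Gap43, Nefl and Ina (median -0.43), against 5.59% lower over all genes. Nefm was the lowest named gene, at -3.88, and Gap43 stood at -1.40. Next lowest were the kinase Stk39 (-3.73), the actin regulator Baiap2 (-3.64), Fezf2 (-3.58) and Bend6 (-3.52). The highest were Olig1 (8.27), Olig2 (at least 5.51, from 0 counts at E15.5), Apoe (4.48), the actin-binding protein Pfn1 (4.28) and Serpine2 (4.17). Without the 5 cells with oligodendrocyte lineage markers, 1 UMI of Olig1 was left at E18.5, against 1 at E15.5. Apoe then stood at 2.60 and Pfn1 at 3.60. Slc17a6 was higher at E18.5 by a log2 ratio of 3.09 and Sstr2 by 1.71.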

How the data were processed

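Per the labels' protocols, dissociated embryonic mouse cells were sorted for green fluorescence and about 10000 were loaded per library on the 10x Genomics Chromium 3′ v2 system. The authors deposited a matrix of raw UMI counts per gene and barcode for each of 4 libraries (27998 genes); per the submitters' processing notes these came from Cell Ranger 1.3.1 with mm10, and Seurat is also named. Total counts were 31173997 (labelled GE E15.5), 14528712 (labelled GE E18.5), 29255083 (cortex, E15.5) and 29427527 (cortex, E18.5).

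Counts were summed over each set of barcodes and expressed per 1000000 (CPM) without 13 mitochondrial, 85 ribosomal protein and 10 haemoglobin genes. Ratios carry exact conditional binomial intervals, levels exact Poisson intervals and shares Clopper-Pearson intervals, all at 95%. With 1 library per group no test was possible. A gene counted as called at 2-fold or more with at least 20 CPM in 1 set, and a gene at 0 was bounded with 3 counts per set. Scripts were tested on simulated data. Barcodes were scored against 2 simulated doublets each, and the top 0.8% per 1000 barcodes were marked and kept. Layer and marker shares were repeated after thinning to 10000 UMIs. TMM (edgeR 4.0.16) and size factors (DESeq2 1.42.0), in R 4.3.3, served as other scalings of the counts. Python 3.11.15, numpy 2.4.6, scipy 1.17.1, pandas 2.3.3 and scikit-learn 1.9.0 were used. Gene positions are those of GENCODE M21 on GRCm38, and promoter sequences are from RefSeq on GRCm38.p6.

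Named genes were the 15 with the largest positive and the 15 with the largest negative log2 ratio among named genes with at least 50 CPM in 1 set, up to 4 per list and direction, a fixed set of neuronal, layer and progenitor genes, and the top 5 each way in the 2 further comparisons. Some of these genes are not reported here. The members and the 25 gene lists were chosen with earlier results of these data known.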

Additional observations from a re-analysis of the deposited data

Results flagged for a closer look

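For 5 genes the cells that passed the rule stood above the other barcodes of their library at E18.5 and below them at E15.5. The difference was not tested. Neurod1 had log2 ratios of 3.92 at E18.5 and -1.12 at E15.5, Unc5d 3.24 and -1.41, Pou3f2 1.89 and -1.13, Sstr2 2.18 and -2.41, and Slc17a6 3.33 and -2.31. The other barcodes differed in makeup, with 102 of 1064 Eomes-positive at E18.5 and 366 of 472 at E15.5, and the part of this in the ratios was not tested.

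Cells that passed the rule were also found where none of the comparisons looked. The library labelled cortex E15.5 held 4 and the library labelled cortex E18.5 held 8. In the library labelled GE E15.5, 6 more barcodes passed the rule except for the limit of 30000 UMIs, with medians of 38532 UMIs and 46.5 Neurod6 UMIs.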

How the results depend on the processing

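Against the other barcodes, the count of genes called higher (586) was 327 at a minimum of 50 CPM, 1752 with no minimum and 329 at 3-fold, and the count called lower (926) was 406, 1982 and 368, and 608 with Neurod6 from 2 UMIs. Against Eomes-positive barcodes the higher count (582) was 315, 1969 and 323 and the lower count (807) 357, 1702 and 288 at the same settings. At E18.5 the higher count (854) was 481, 1632 and 401. The lower count there (1146) was 535 at 50 CPM, 540 at 3-fold and 620 with no UMI limit. Between E18.5 and E15.5 cells the higher count (1305) was 869 by TMM, 864 by size factors, 581 at 50 CPM, 2475 with no minimum and 468 at 3-fold. The lower count (430) was 670, 673, 156, 673 and 155 at those settings and 646 after thinning to 10000 UMIs. Settings chosen after seeing the data gave 738 lower at E18.5, and 842 higher and 194 lower between the ages, where intervals had to exclude 1, and 866 lower after thinning to 4000 UMIs. The share of cells passing the rule (12.8%) was 8.56% with no UMI limit and 17.0% without barcodes holding both Xist and a Y-linked gene. Cells with 3 or more Neurod1 UMIs (5) came to 0 after thinning and 1 without Xist and Y barcodes. Directions reversed for Vtn (0.59) and Rgs5 (0.97) with Neurod6 from 2 UMIs, for Gng11 (1.53), Vtn (0.26) and Rgs5 (3.33) without vascular, blood and immune barcodes (chosen after seeing the data), and for Neurod1 between ages (-0.11) when thinned to 10000 UMIs, which left 7 E18.5 cells, against 1.26 when thinned to 4000 UMIs. The causes were not tested. The remaining counts and shares of these summaries stayed within 1.5 times or their intervals. Log2 ratios of single named genes did not all do so. Outside the interval of the main setting were 268 values against the other barcodes, 83 against Eomes-positive barcodes and 65 between the ages. Within it were 2396, 509 and 649. No paired analysis was possible because each group is 1 library.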
